A study of Homo sapiens with 6 samples.

Results

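The genes described here are those of the enzymes that make and rearrange disulfide bonds in the endoplasmic reticulum (ER). The isomerase-type members are PDIA3, P4HB, PDIA4, PDIA5 and PDIA6, the thioredoxin-fold proteins are ERP29, ERP44 and TMX1, and the oxidases are ERO1A and ERO1B. They were chosen by gene name, and the set was selected on measured values: the enzastaurin over untreated ratios of these same arrays were known when it was drawn up. Their ratios are therefore given as a description, with no test. Of the 10 genes, 9 were measured, by 17 probe sets, out of 11963 genes and 19064 probe sets that the array's annotation pairs with a single gene. PDIA5 is not analysed here, because its probe set is listed with a second gene, MIR7110. All 9 measured genes and all 17 probe sets passed the filter on dim signals, which left 6838 genes in all.

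MM.1S, an established human multiple myeloma cell line, was either left untreated or given the protein kinase C beta inhibitor enzastaurin. Total RNA was taken after 3, 6 and 12 h in both groups and each RNA was hybridised to 1 Affymetrix array, so each group had 3 arrays and each treatment and time had 1. All samples are of this single line, and the labels give no dose, genotype change or second agent. Values are MAS5 intensities on a linear scale, and a log2 ratio is the log2 intensity of an enzastaurin array minus that of the untreated array of the same time.

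Disulfide bonds form in the ER when a protein disulfide isomerase oxidises a pair of cysteines in a new protein, and wrong bonds are reshuffled by the same family. ERO1 oxidases recharge P4HB, the founding isomerase, by passing its electrons to oxygen, which yields hydrogen peroxide. Plasma cells and myeloma cells lean on this system, since immunoglobulin chains are joined and folded by disulfide bonds before they are secreted.

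Many genes of this kind are known targets of the unfolded protein response, whose factors ATF6 and XBP1 bind the ER stress response element (ERSE). Promoter sequences from RefSeq (GRCh38.p14, 250 bases before to 50 after each start) matched 9 of the 10 members, all but PDIA3, with 11 windows. The ERSE letters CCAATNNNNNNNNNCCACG, searched on both strands, were found in PDIA6 and ERO1B, and in 0.0769% of all 35116 windows. The 2 matches are shown with that of HSPA5, the chaperone BiP and a textbook ERSE target, so that the shared letters can be read. Capitals mark the match, which lies on the opposite strand in ERO1B. All 3 stretches lie on the minus strand of the genome and before the start: PDIA6 at chr2:10812833-10812891, ERO1B at chr1:236282163-236282208 and HSPA5 at chr9:125241371-125241429.
PDIA6: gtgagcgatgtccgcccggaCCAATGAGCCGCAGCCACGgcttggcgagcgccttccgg
ERO1B: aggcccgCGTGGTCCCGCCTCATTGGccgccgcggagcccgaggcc
HSPA5: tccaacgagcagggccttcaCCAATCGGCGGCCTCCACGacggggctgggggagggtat
PDIA6 has a second listed window in which the ERSE was not found. The related letters ATTGGNCCACG (ERSE-II, in 0.0541% of windows) and TGACGTGG (UPRE, in 0.729%) were found in 0 members. These are matches of letters in a fixed window and not measured binding.

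Several RNA quality measures differed between arrays and are given before the results. Median intensity over all probe sets ranged from 62.2 to 67.6. The mean log2 intensity of the 3 ribosomal RNA probe sets was 3.39, 11.98 and 9.29 in untreated cells at 3, 6 and 12 h and 9.99, 3.79 and 3.02 in enzastaurin cells. Thus 3 arrays were low in ribosomal RNA, untreated 3 h and enzastaurin 6 and 12 h, and the difference within a pair ran one way at 3 h and the other way later. The log2 ratio of the 3' to the 5' ACTB probe set was 1.89, 1.16 and 1.60 in untreated cells and 2.0, 0.57 and 0.86 in enzastaurin cells. For GAPDH this ratio differed less, at 0.28, 0.23 and 0.30 in untreated cells and 0.23, -0.11 and 0.24 in enzastaurin cells. All 7 plasma cell markers passed the filter, with summed intensities of 14029 to 19497 in untreated and 12106 to 14126 in enzastaurin cells. The sum hides unlike markers: at 6 and 12 h the log2 ratios were -1.02 and -3.08 for TNFRSF17, -1.88 and -1.33 for IRF4 and -0.65 and -1.42 for SDC1, and 0.39 and 0.87 for JCHAIN. These are the arrays on which PDIA3 and ERP29 are low, and the part of such markers in the results was not tested. Markers of T cells (0 of 3), B cells (0 of 2 measured) and monocytes (0 of 3) did not pass it. Of the stromal markers COL1A1 and COL1A2 passed (2 of 3, summed 387 to 528 in untreated and 412 to 507 in enzastaurin cells).

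PDIA3, also known as ERp57, folds glycoproteins together with calnexin and calreticulin and serves in the loading of MHC class I molecules. Its single probe set, 208612_at, read 871, 1062 and 817 in untreated cells at 3, 6 and 12 h and 809, 179.6 and 139 in enzastaurin cells. The untreated arrays and the 3 h enzastaurin array lie close together, and the 2 later enzastaurin arrays are far below all of them. The log2 ratios were -0.11, -2.56 and -2.56, that is 5.91-fold lower at 6 h and 5.88-fold lower at 12 h, with a mean of -1.74 ± 1.42 (SD, n = 3 times). Ordered from the lowest, PDIA3 ranked 7 of 6838 genes at 6 h and 25 at 12 h. Its 3 enzastaurin arrays lay below its 3 untreated arrays, though at 3 h by only 809 against 817. Over all genes this was so for 7.18%, and among the 9 members it held for PDIA3 alone. RefSeq lists the pseudogenes PDIA3P1 and PDIA3P2, and whether their transcripts add to this probe set was not tested.

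**Figure D1:**
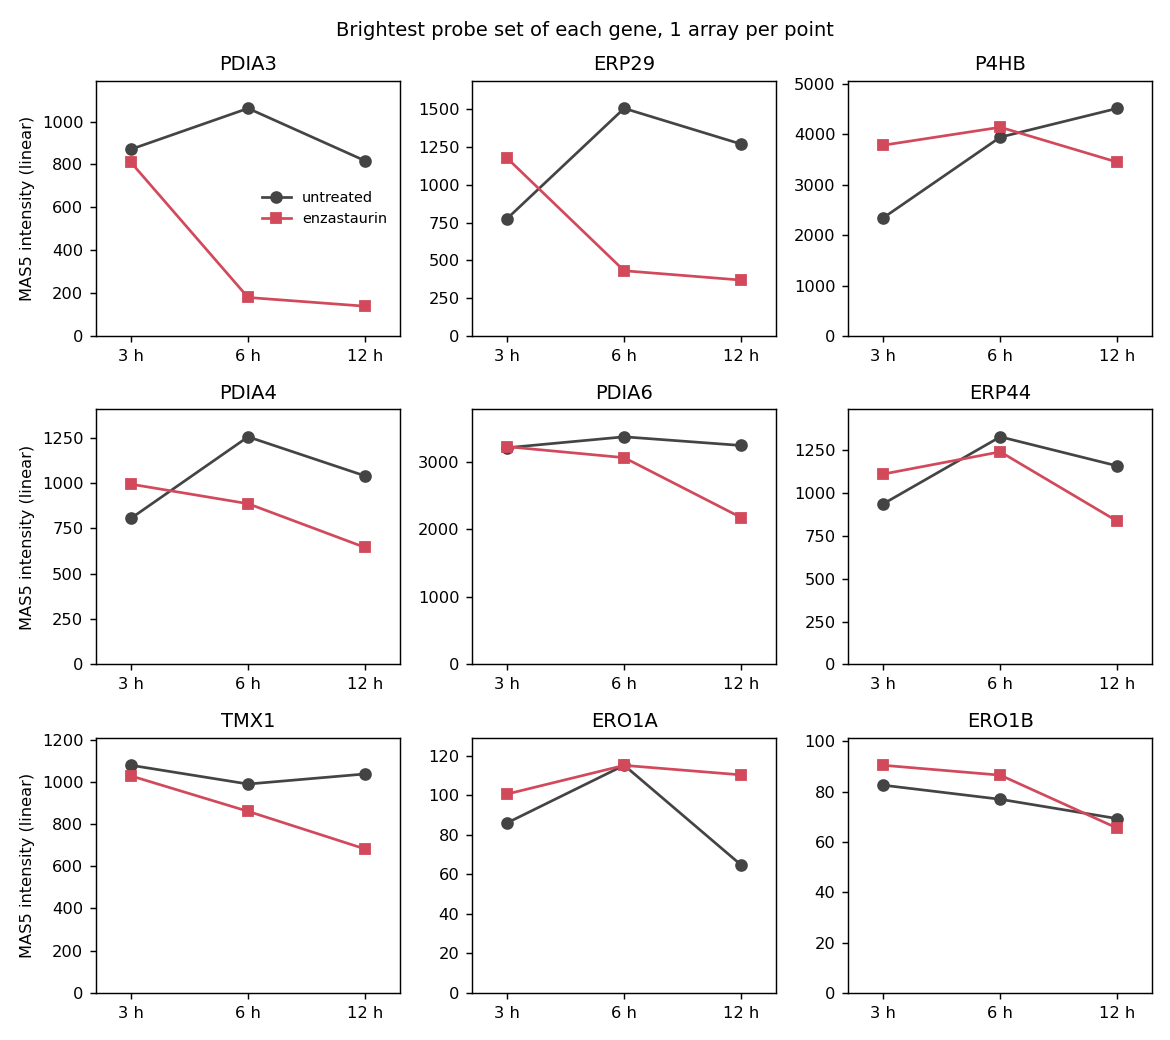
MAS5 intensity (linear, each panel from 0) of the brightest probe set of the 9 measured members at 3, 6 and 12 h, 1 point per array, untreated and enzastaurin. PDIA3 and ERP29 are at or below 432 in enzastaurin cells at 6 and 12 h and at or above 777 on every other array. The 2 groups overlap in every panel but that of PDIA3.

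P4HB, the isomerase that ERO1 recharges and also a subunit of collagen prolyl hydroxylase, did not follow PDIA3. Its brighter probe set, 200654_at, read 2342, 3941 and 4512 in untreated cells and 3781, 4138 and 3446 in enzastaurin cells. The array that stands apart is untreated 3 h, and the untreated arrays differed among themselves by 1.93-fold, so the groups overlap. Its log2 ratios were 0.69, 0.07 and -0.39 (mean 0.12 ± 0.54, SD, n = 3 times). The other probe set, 200656_s_at, gave 0.66, 0.14 and -0.29, the same signs at each time.

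PDIA4, or ERp72, carries several thioredoxin-like domains and is found with the ER chaperones. Probe set 208658_at read 805, 1254 and 1039 in untreated cells and 993, 886 and 644 in enzastaurin cells. The groups overlap, since untreated 3 h lies between the 2 later enzastaurin arrays. Its log2 ratios were 0.30, -0.50 and -0.69 (mean -0.30 ± 0.53, SD, n = 3 times). The second probe set, 211048_s_at, gave 0.02, 0.24 and -0.60, so the sets had opposite signs at 6 h and like values at 12 h.

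PDIA6, or P5, works beside HSPA5 and acts on the stress sensors of the unfolded protein response. Probe set 208638_at read 3206, 3367 and 3239 in untreated cells and 3221, 3059 and 2172 in enzastaurin cells. Of these 6 arrays 5 lie within a narrow band, and enzastaurin 12 h is below it. The log2 ratios were 0.01, -0.14 and -0.58 (mean -0.24 ± 0.30, SD, n = 3 times). All 4 PDIA6 probe sets gave nearly the same picture, with 12 h ratios from -0.67 to -0.58, 6 h ratios from -0.14 to 0.03 and 3 h ratios from 0.01 to 0.25. These sets measure the same RNA and are not replicates of the treatment.

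ERP29, a thioredoxin-fold protein without the catalytic cysteines of the isomerases, helps secretory proteins through the ER. Its single probe set, 201216_at, read 777, 1506 and 1269 in untreated cells and 1176, 432 and 369.8 in enzastaurin cells. The groups overlap, because the untreated 3 h array is below the enzastaurin 3 h array. The log2 ratios were 0.60, -1.80 and -1.78, that is 3.49-fold lower at 6 h and 3.43-fold lower at 12 h (mean -0.99 ± 1.38, SD, n = 3 times). ERP29 ranked 33 from the lowest at 6 h and 123 at 12 h.

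The 3 lowest ERP29 arrays are the 3 arrays low in ribosomal RNA. On the brightest probe sets that order, the 3 low arrays all below the other 3, held for ERP29, PDIA4 and PDIA6 and for 11.5% of all genes. For PDIA6 it rested on 3206 (untreated 3 h) against 3221 (enzastaurin 3 h). Its other sets broke the order, with enzastaurin 6 h above enzastaurin 3 h (2826 against 2709 in 207668_x_at). The second PDIA4 set broke it too, as enzastaurin 6 h (535) was its highest array. The order did not hold for PDIA3, whose untreated 3 h array (871) was low in ribosomal RNA but above the untreated 12 h array (817). With ribosomal RNA intensity as a covariate, in a fit left with 1 residual degree of freedom, the mean log2 ratio of PDIA3 was -1.28 in place of -1.74 and that of ERP29 was -0.55 in place of -0.99. It was -0.13 in place of -0.30 for PDIA4 and 0.27 in place of 0.12 for P4HB, and nearer the uncorrected value for the other 5. What sets the ribosomal RNA signal was not tested.

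**Figure D2:**
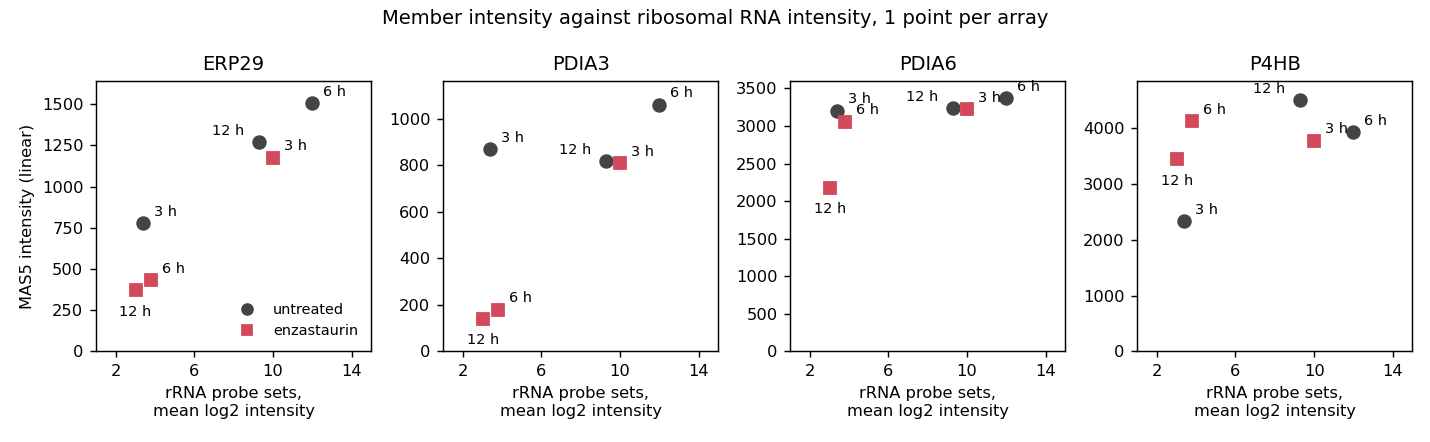
MAS5 intensity (linear) of ERP29, PDIA3, PDIA6 and P4HB against the mean log2 intensity of the 3 ribosomal RNA probe sets, 1 point per array, labelled with its time. ERP29 is lower on the 3 arrays at the left, while PDIA3 has 1 array at the left, untreated 3 h, that is as high as those at the right.

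The promoter of ERP29 is shown because ERP29 is one of the 2 members furthest below their controls. It holds CACGTG, the E-box letters read by factors such as MYC and USF1, 3 times within this stretch on the plus strand (RefSeq, GRCh38.p14, chr12:112013294-112013422), which ends before the start. Capitals mark the matches.
ERP29: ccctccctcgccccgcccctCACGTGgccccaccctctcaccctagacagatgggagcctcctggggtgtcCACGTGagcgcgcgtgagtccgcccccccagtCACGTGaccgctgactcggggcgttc
At least 1 such match was found in 7.26% of all windows and in 2 members, ERP29 and PDIA5. The letters read the same on both strands. No binding was measured in these samples.

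ERP44 holds ERO1 enzymes and unassembled immunoglobulin M in the early secretory pathway through a mixed disulfide. Probe set 208959_s_at read 936, 1327 and 1157 in untreated cells and 1109.8, 1239 and 835 in enzastaurin cells. The groups overlap, and the lowest array is enzastaurin 12 h. Log2 ratios were 0.25, -0.10 and -0.47 (mean -0.11 ± 0.36, SD, n = 3 times). The set 208957_at gave 0.16, -0.52 and -0.38. The dim set 208958_at, whose intensities ran from 45.0 to 99.4, gave -0.09, 0.23 and -1.14.

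TMX1 is a membrane-bound oxidoreductase that acts on membrane-anchored proteins. Probe set 209476_at read 1078, 989 and 1037 in untreated cells and 1028, 860.0 and 682 in enzastaurin cells. The later enzastaurin arrays are below all untreated ones, and the 3 h array lies among them. Its log2 ratios were -0.07, -0.20 and -0.61 (mean -0.29 ± 0.28, SD, n = 3 times). The dimmer set 208097_s_at gave -0.81, 0.53 and -0.14, and its untreated arrays alone differed by 2.62-fold.

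The oxidases were near the dim end of the range kept, where a geometric mean of 63.3 was the limit. ERO1A, the oxidase known to respond to low oxygen, read 86.1, 115 and 64.7 in untreated cells and 101, 115 and 110.4 in enzastaurin cells on 218498_s_at. The groups overlap, the 3 enzastaurin arrays are alike, and the lowest array is untreated 12 h. The log2 ratios were 0.23, -0.00 and 0.77, the last being 1.71-fold higher (mean 0.33 ± 0.40, SD, n = 3 times). ERO1B, whose ERSE is printed above and which is known from insulin-producing cells, read 82.6, 77.0 and 69.3 in untreated cells and 90.5, 86.6 and 65.5 in enzastaurin cells on 220012_at. Its groups overlap, with log2 ratios of 0.13, 0.17 and -0.08 (mean 0.07 ± 0.14, SD, n = 3 times).

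**Figure D3:**
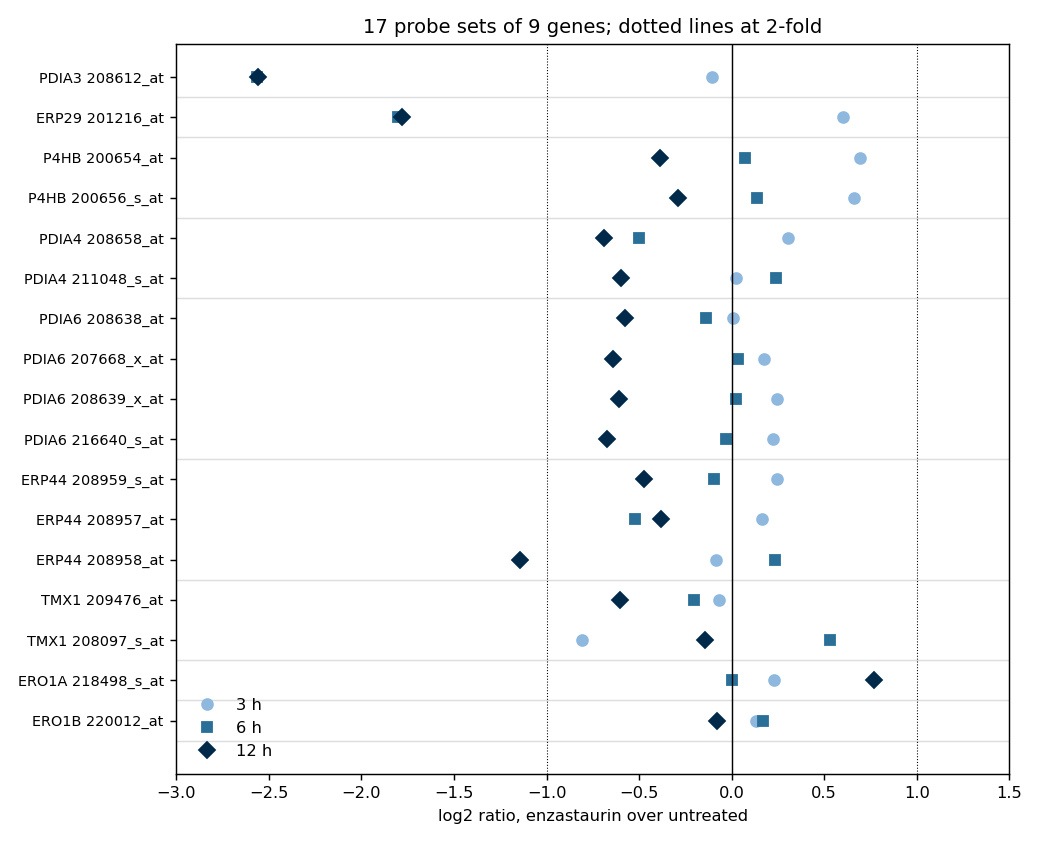
Log2 ratio of enzastaurin over untreated intensity for each of the 17 probe sets of the 9 members at 3, 6 and 12 h, with dotted lines at 2-fold. At 12 h 16 sets are below 0, and PDIA3, ERP29 and the dim ERP44 set 208958_at lie beyond the lower line.

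Seen together, the members stood slightly above their controls at 3 h and below them at 12 h. At 3 h 7 of the 9 log2 ratios were above 0, with a median of 0.23 beside -0.04 over all genes. Untreated 3 h, low in ribosomal RNA, was the lowest untreated array for P4HB, PDIA4, PDIA6, ERP29 and ERP44. For PDIA3, TMX1, ERO1A and ERO1B it was not. At 6 h 7 of the 9 ratios were below 0, with a median of -0.14 beside 0.06. The shares of all genes above 0 at 3 h and below 0 at 6 h were not counted. At 12 h 8 were below 0, all but ERO1A, with a median of -0.58 beside -0.18, and 61.1% of all genes were below 0 at that time. Without PDIA3 and ERP29 the 12 h median of the other 7 was -0.47.

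The 12 h level depends in part on scaling. Setting equal medians for the genes kept moved the median of all genes at 12 h from -0.18 to 0.02 and that of the members from -0.58 to -0.38, with 7 of 9 below 0 because ERO1B turned to 0.11. With quantile normalization these medians were -0.03 and -0.37. Under these 2 scalings, equal medians of all probe sets and a pseudocount of 32, PDIA3 stayed between -2.66 and -2.37 at 6 h and between -2.60 and -2.31 at 12 h. ERP29 stayed between -1.90 and -1.73 and between -1.82 and -1.58. The signs of small ratios also turned for P4HB at 6 h (-0.02 with equal medians of all probe sets) and PDIA6 at 3 h (-0.01 with quantile normalization).

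No member was 2-fold apart at 3 h, where 2.65% of genes were at least 2-fold lower and 1.89% higher. At 6 h PDIA3 and ERP29 were at least 2-fold lower (3.22% of all genes) and 0 members higher (5.6%). At 12 h the same 2 were lower (10.4%) and 0 higher (3.88%). Being 2-fold lower at both later times held for these 2 and for 1.86% of genes. No member had all 3 enzastaurin arrays above its untreated arrays, against 3.47% of genes. Because the members were picked with these ratios in view, nothing is read from the counts.

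**Figure D4:**
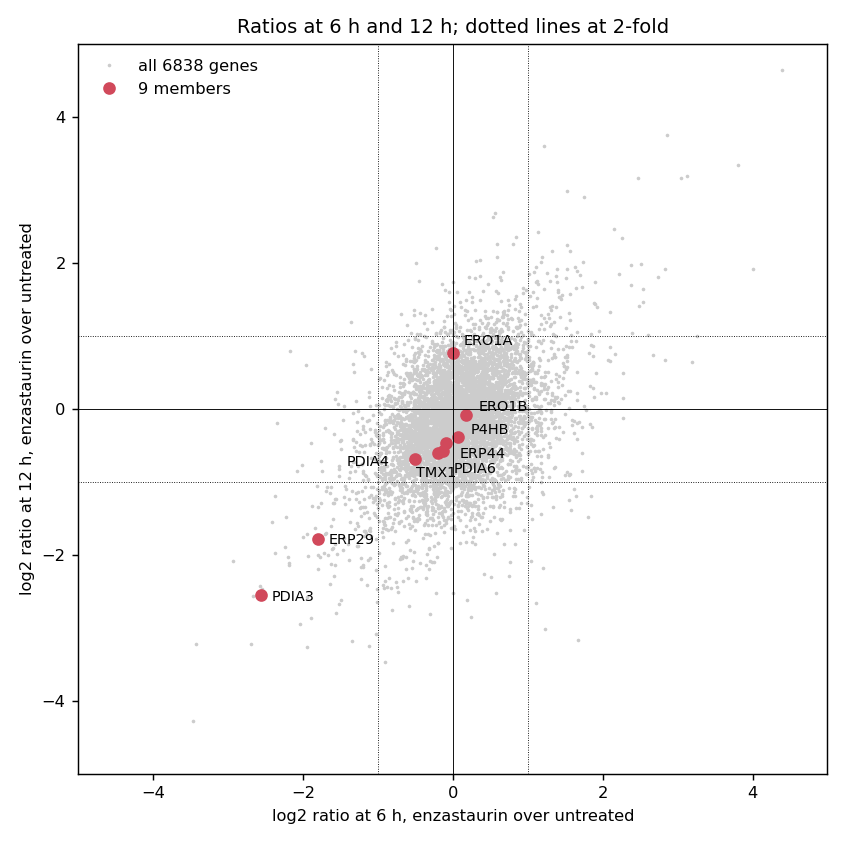
Log2 ratio of enzastaurin over untreated at 12 h against that at 6 h, 1 point per gene, with the 9 members named among all 6838 genes. PDIA3 and ERP29 lie at the lower left, with like ratios at both times, and the other 7 members lie within 1 log2 unit of 0 at both times.

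Across all genes, limma with the time point as a block called 4 of 6838 genes over the 3 times at a Benjamini-Hochberg adjusted p under 0.05 (0.0585%), none of the 9 members among them. At an unadjusted p under 0.05 it counted 370. With the 6 and 12 h pairs alone, a choice made with the 3 h result known, it called 142 genes lower (2.08%), PDIA3 and ERP29 included, and 105 higher (1.54%), with 0 members. These counts are given for scale and are no test of the members. In a bulk RNA sample, fewer cells with a transcript and less of it per cell cannot be told apart.

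The genes with log2 intensities most like those of PDIA3 over the 6 arrays were ADA (Pearson r = 0.996), TKT (0.989), SNRNP35 (0.988), KHDRBS1 (0.987) and THG1L (0.984). ADA is adenosine deaminase and TKT is transketolase of the pentose phosphate pathway. Their log2 ratios at 3, 6 and 12 h were 0.14, -1.63 and -1.61 for ADA and 0.33, -3.43 and -3.22 for TKT. KHDRBS1, an RNA-binding protein, had the same shape at a small size, with -0.06, -0.26 and -0.35. In all, 265 genes had r above 0.9. The other members ranged from ERP29 at 0.941 and TMX1 at 0.910 through PDIA6 at 0.804 and PDIA4 at 0.729 to ERO1A at -0.45. These are values over the same 6 arrays, of which the 2 later enzastaurin arrays are low for PDIA3, and they say nothing of shared control.

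Genes related to the members, not all of them of the ER, were taken as 4 lists of 44 genes, of which 22 passed the filter. In the fit of all 3 times 0 of the 22 were called by limma, beside the 0.0585% of all genes. At an unadjusted p under 0.05 it counted 1 of the 22, beside 370 of all 6838 genes. The median of the mean log2 ratios of the 22 was 0.19, with 16 of 22 above 0, beside -0.05 for all genes and -0.24 for the members. The share of all genes with a mean above 0 was not counted. As the lists were chosen with earlier results of these data known, nothing is read from such counts.

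Of the other ER oxidoreductases 3 of 12 were measured above the filter and 0 were called. TMX4, a membrane relative of TMX1, had log2 ratios of -0.01, -0.37 and -1.03 on its brighter probe set and -0.38, 0.12 and 0.60 on its other kept set, so the sets disagree in sign at the later times. TMX2 (0.31, -0.24 and -0.02) and DNAJC10, a reductase that unfolds substrates for degradation (-0.06, -0.01 and -0.26), were nearer 0, though a second DNAJC10 set gave 0.48 at 3 h.

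Of the other oxidation and peroxide enzymes 4 of 11 passed the filter and 0 were called. QSOX1, a sulfhydryl oxidase that works apart from ERO1, had log2 ratios of 0.81, 0.18 and -0.24 on a dim probe set (41.4 to 124). VKORC1, the vitamin K epoxide reductase, had 0.94, 0.03 and 0.07, and the selenoprotein SELENOF had -0.16, -0.40 and -0.32. PRDX4, which uses the peroxide made by ERO1, had 0.54, 0.10 and -0.44. The list's medians at 3, 6 and 12 h were 0.68, 0.07 and -0.28. For QSOX1, VKORC1 and PRDX4 the lowest array was untreated 3 h, an array low in ribosomal RNA. For SELENOF it was enzastaurin 12 h.

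Of the partners and retrieval receptors 9 of 14 passed the filter, 0 were called and 7 had a mean above 0. The lectin chaperones that pair with PDIA3 did not share its ratios: CALR had 0.24, -0.04 and 0.35 and CANX had -0.27, 0.11 and 0.25. Their other probe sets were higher at the later times, with up to 0.71 and 0.78 at 6 and 12 h in CALR and up to 1.06 and 0.63 in CANX. TAPBP, the tapasin that holds PDIA3 in the peptide-loading complex, had 0.50, 0.01 and 0.43. HSPA5, whose ERSE is shown above, had 0.08, 0.32 and -0.61. The receptors that return ER proteins from the Golgi had 0.49, 0.51 and 0.31 (KDELR1) and 0.66, 0.49 and 0.04 (KDELR3). No difference between these genes and PDIA3 was tested, since PDIA3 was picked for its ratios.

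Among the regulators of the unfolded protein response and of ERO1A, 6 of 7 passed the filter. DDIT3, the stress transcription factor CHOP, had log2 ratios of 2.25, 1.11 and 1.95, higher at 3 of 3 times. Its mean was 1.77 ± 0.32 (SE), with a limma adjusted p of 0.132 over the 3 times, and with the later pairs alone it was 1.53 ± 0.37 (SE), adjusted p = 0.0250. Over the other scalings and without the trend, limma gave it 0.0207 to 0.0483 with those pairs. These values all rest on the same arrays. The later pairs were chosen with the 3 h result known, and the list with earlier results of these data known. The p-values of DDIT3 are therefore given for scale. HIF1A had 0.02, 0.39 and 0.56, ATF4 had 0.52, 0.07 and 0.17 and XBP1 had -0.10, 0.46 and 0.26, none past either fit. ATF6, also past neither fit, had -0.01, -0.45 and 0.14 on its brighter probe set. Its other kept set gave 0.36, 0.74 and 0.49.

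**Figure D5:**
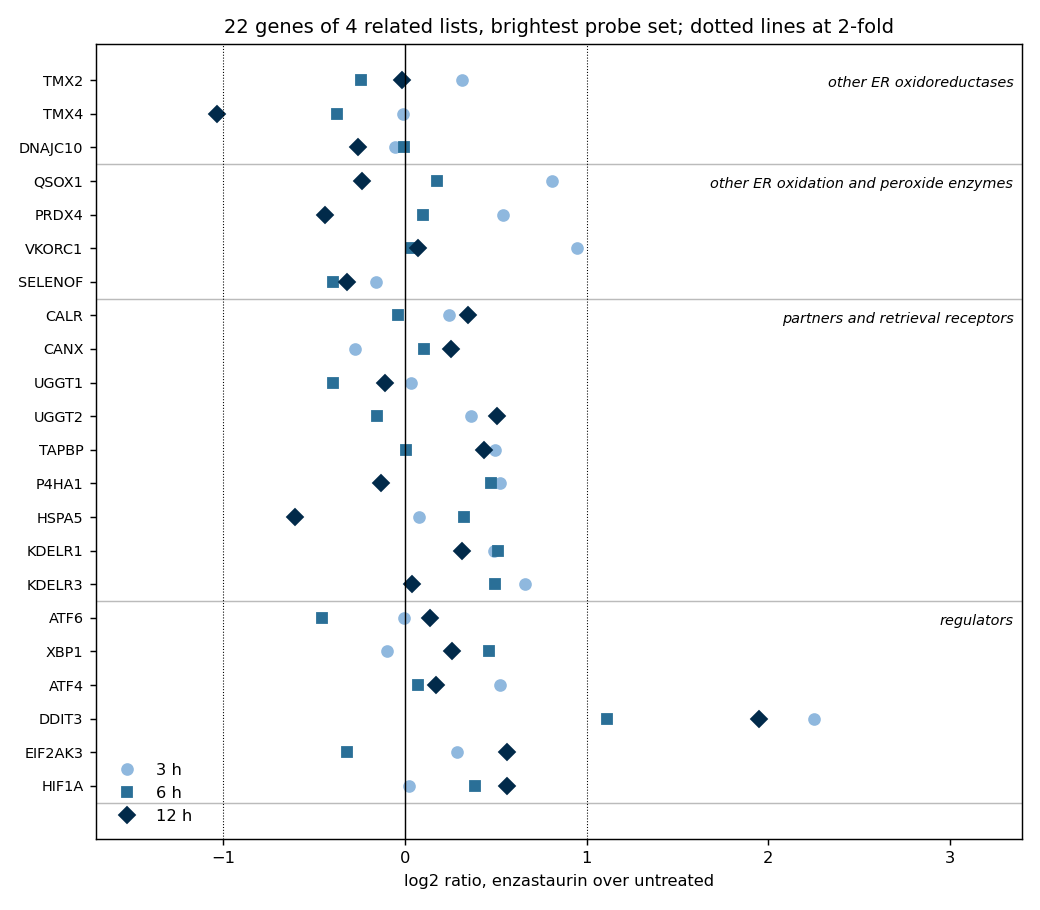
Log2 ratio of enzastaurin over untreated at 3, 6 and 12 h for the 22 related genes that passed the filter, each by its brightest probe set, grouped by list, 1 point per time. DDIT3 is above 1 at each time, and TMX4 is the one plotted gene under -1 at any time.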

How the data were processed

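Intensities were made by the authors with MAS5, per the submitters' processing notes, and were deposited on a linear scale. Which version and scaling target they used is not given in the sources used here. Total RNA was extracted with TRIzol, per the labels' protocols. Of 22277 probe sets 62 were controls. Of the other 22215, the platform annotation gives 1 symbol for 19064, several for 1043 and lists none for 2108, and 19052 of the 19064 have an Entrez identifier found in RefSeq. Probe sets with several genes were not named.

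The authors' scaling was kept. Intensities were floored at 1 and log2 transformed, the upper 50% by mean log2 intensity was kept, and each gene was represented by its brightest probe set (6838 genes). Levels of different probe sets served only to choose the brightest, to call sets brighter or dim and in the summed marker intensities. Those sums took in every probe set of a list, also those under the filter. Fits used limma 3.58.1 in R 4.3.3 (lmFit, eBayes with trend), time as a block, and Benjamini-Hochberg adjustment over all genes. They were tried on simulated data with independent noise and the same change at all times. Differences between arrays, such as those in ribosomal RNA, were not simulated. The labels name no separate cultures, so p-values reflect only how these arrays spread, and that may be technical. At 1 time no test is possible with 1 array a side, and no SD is given.

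The members and lists were chosen with earlier results of these data known. Named genes were all members, the genes of each list past either fit or among its 3 largest mean ratios, and the 5 genes most correlated with PDIA3. PRDX4, CALR, CANX, HSPA5, XBP1 and ATF6 were named outside that rule, after their values were seen. Alternatives covered scaling, pseudocount, filter, probe set choice, time block, trend, ribosomal RNA covariate and each pair left out.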

Additional observations from a re-analysis of the deposited data

Results flagged for a closer look

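In 4 members the 3 h log2 ratio was above 0 and both later ratios were below 0. How many of all genes share this pattern was not counted, and 61.1% of them were below 0 at 12 h. It is therefore not given as a trait of the members. The later mean minus the 3 h ratio was -2.39 in ERP29 (0.60 at 3 h, -1.79 later), -0.90 in PDIA4 (0.30 and -0.60), -0.53 in ERP44 (0.25 and -0.28) and -0.36 in PDIA6 (0.01 and -0.36). This difference between times was not tested, as each time had 1 array a side. The PDIA6 value at 3 h was -0.01 with quantile normalization. At 6 h the second PDIA4 set (0.24) and the dim ERP44 set (0.23) were above 0. The ribosomal RNA difference within pairs also changed direction between 3 h and the later times, and its part in these values was not tested.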

How the results depend on the processing

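The mean log2 ratio of each of the 9 members moved by less than its SD under the 9 alternatives run for it. Where a pair is left out this is fixed in advance, since a mean of 3 ratios then always moves by less than their SD. It is therefore no check of stability for those alternatives. Under all of the alternatives 7 members kept their sign. P4HB turned from 0.12 to -0.16 without the 3 h pair and ERP44 from -0.11 to 0.07 without the 12 h pair. Without the 3 h pair PDIA4 was -0.60 (with it -0.30), PDIA6 -0.36 (-0.24), ERP44 -0.28 and ERO1B 0.04 (0.07). Without 6 h PDIA4 was -0.19, ERO1A 0.50 (0.33) and ERO1B 0.03. Without 12 h PDIA4 was -0.10, PDIA6 -0.07, TMX1 -0.14 (-0.29), P4HB 0.38, ERO1A 0.11 and ERO1B 0.15. The members' median stayed between -0.36 and -0.07. Without the 3 h pair the mean of ERP29 was -1.79 in place of -0.99, and without 6 h or 12 h it was -0.59 or -0.60. The alternatives for each member other than PDIA3, and the ribosomal RNA covariate for PDIA3 and for the members' median (-0.13), were added after seeing the data. With a 1.5-fold limit in either direction, 2 members were apart at 3 h (0 at 2-fold) and 5 at 12 h (2 at 2-fold). Those at 3 h, P4HB and ERP29, were higher. At 12 h PDIA3, ERP29, PDIA4 and TMX1 were lower and ERO1A was higher. The share of all genes past 1.5-fold was not counted, so nothing is read from these counts. The limma fit of 3 times called 4 genes, but 1 with equal medians of all probe sets, with quantile normalization or without the filter, 2 without the time block, 0 without the trend (360 at an unadjusted p under 0.05) and 74 with the ribosomal RNA covariate. Leaving out a pair gave 0 to 247 calls: 247 without 3 h, and 0 without 6 h or 12 h (169 and 134 unadjusted). The related lists had 0 calls, but 1, DDIT3, with the covariate, and 0 to 1 when a pair was left out (1 without 3 h). The later fit called 247, against 133 without the trend and 4 with all 3 pairs. PDIA3 was among the calls of the covariate fit and of each later fit of 2 pairs, and ERP29 among those of the latter only. The 6 arrays, 1 a group and time, limit precision.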
